A study of Mus musculus with 4 samples.

Results

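Among 21 genes of the family of regulators of G protein signaling (RGS), 7 are described here in follicular helper T (Tfh) cells: Rgs1, Rgs2, Rgs3, Rgs10, Rgs14, Rgs16 and Rgs19. These 7 were taken by symbol from a table of 23997 genes, and all 7 had a row. Tfh cells are the CD4 T cells that move into B cell follicles and help B cells in germinal centres. RNA sequencing compared 2 libraries from mice that carry the Apoe-/- genotype with 2 from wild type (WT) mice. Both groups were 13 weeks old and of the C57BL/6 strain, neither had a labelled treatment, and lymph nodes and spleens were the source of the cells. Apoe encodes apolipoprotein E, and mice without it have high plasma cholesterol and develop atherosclerosis. The labels name no sorting gate and do not say whether a library is 1 animal or a pool, so p-values here cover the spread among 4 libraries, part of which may be technical. In such bulk samples, fewer cells of a type and less RNA per cell cannot be told apart.

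Chemokine receptors signal through heterotrimeric G proteins, mostly of the Gi class. A receptor that has bound its ligand loads the alpha subunit with GTP, and alpha and beta-gamma subunits then separate and act on the machinery of migration. RGS proteins speed the hydrolysis of that GTP and so end the signal, which makes them brakes on chemotaxis. In lymphocytes they are known for setting how long a cell responds to the chemokines of the follicle, and several are induced by antigen receptor stimulation.

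Of the 7 RGS genes 0 passed the test between genotypes (limma on log2(FPKM + 1), adjusted p under 0.05), where 1.83% of all tested genes passed, 0.948% higher and 0.885% lower in Apoe-/- cells. With the replicate number as a block, a pairing that the labels do not state, 5 of the 7 passed. In that fit 1908 of the 11187 tested genes were higher and 1776 lower in Apoe-/- cells. All 7 were transcribed in every library. Rgs10 was the most abundant, Rgs1, Rgs16 and Rgs2 followed, and Rgs3, Rgs14 and Rgs19 were lower. The largest difference was that of Rgs2, whose mean level was 32.3% lower in Apoe-/- than in WT cells. Levels are the authors' FPKM, by definition the fragments of a gene divided by its transcript length and by the library's mapped fragments. Levels of different genes are set side by side on that scale, though the settings used to compute it were not given.

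Apoe, the targeted gene, was at 5.09 and 5.21 FPKM in the Apoe-/- libraries and at 145 and 128 FPKM in the WT libraries (log2 difference -4.48 ± 0.11 SE, limma adjusted p = 0.000315). Sums of marker lists below give the lower library of each genotype first, whatever its number. Values of single genes are in order of library number. The T cell and Tfh genes Cd4, Cd3e, Cxcr5, Bcl6 and Pdcd1 were present in all libraries, and 10 Tfh and T cell markers summed to 2116 and 2131 FPKM in Apoe-/- and 2101 and 2102 FPKM in WT libraries. Single markers within these sums differed more: Pdcd1, the gene of the PD-1 receptor, had 203 and 179 FPKM in Apoe-/- and 283 and 259.6 FPKM in WT libraries (limma adjusted p = 0.0887), while Cxcr5 is given with the receptors. Transcripts of other cells were present too. The 10 B cell markers, none at 0 throughout, summed to 195.0 and 204.2 FPKM in Apoe-/- and 329.3 and 334.1 FPKM in WT libraries. Of the 10, 4 fell while the other 6 did not pass. All 10 had negative differences with an unadjusted p under 0.05 (limma). Of 9 neutrophil markers found, the 4 tested rose, Camp and Elane were listed at 0 in all libraries, and sums were 50.8 and 67.1 FPKM in Apoe-/- against 7.46 and 9.44 FPKM in WT libraries. Of 10 macrophage and monocyte markers, none at 0 throughout, 1 rose and 9 did not pass, with sums of 130.3 and 142 FPKM in Apoe-/- against 109 and 112 FPKM in WT libraries. Of 8 dendritic cell markers, none at 0 throughout, 1 of the 6 tested rose, with sums of 335 and 373 FPKM in Apoe-/- against 295 and 309 FPKM in WT libraries. These sums put the lower library first. Most of each library's sum was H2-Aa, by library number at 316 and 352 FPKM in Apoe-/- and 299 and 285.5 FPKM in WT libraries. All 6 tested had positive differences, 4 of them with an unadjusted p under 0.05 (limma). The one that rose, Itgax, was at 9.12 and 9.15 FPKM in Apoe-/- and 3.84 and 3.49 FPKM in WT libraries. Of 8 CD8 T and NK cell markers, none at 0 throughout, 0 of the 6 tested passed limma's test and 4 had an unadjusted p under 0.05; sums were 26.2 and 34.3 FPKM in Apoe-/- against 15.6 and 18.4 FPKM in WT libraries. Of 6 plasma cell markers, none at 0 throughout, 1 of the 4 tested rose, Jchain, with sums of 91.6 and 95.2 FPKM in Apoe-/- against 99.5 and 108 FPKM in WT libraries. Of the 4, 3 had an unadjusted p under 0.05 (limma). These were Jchain (log2 difference 1.34) and, in the other direction, Xbp1 (-0.48) and Irf4 (-0.62). Several RGS genes, Rgs1, Rgs2 and Rgs10 among them, are also transcribed in B cells or myeloid cells, and the part of those cells in the values below was not tested.

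**Figure D1:**
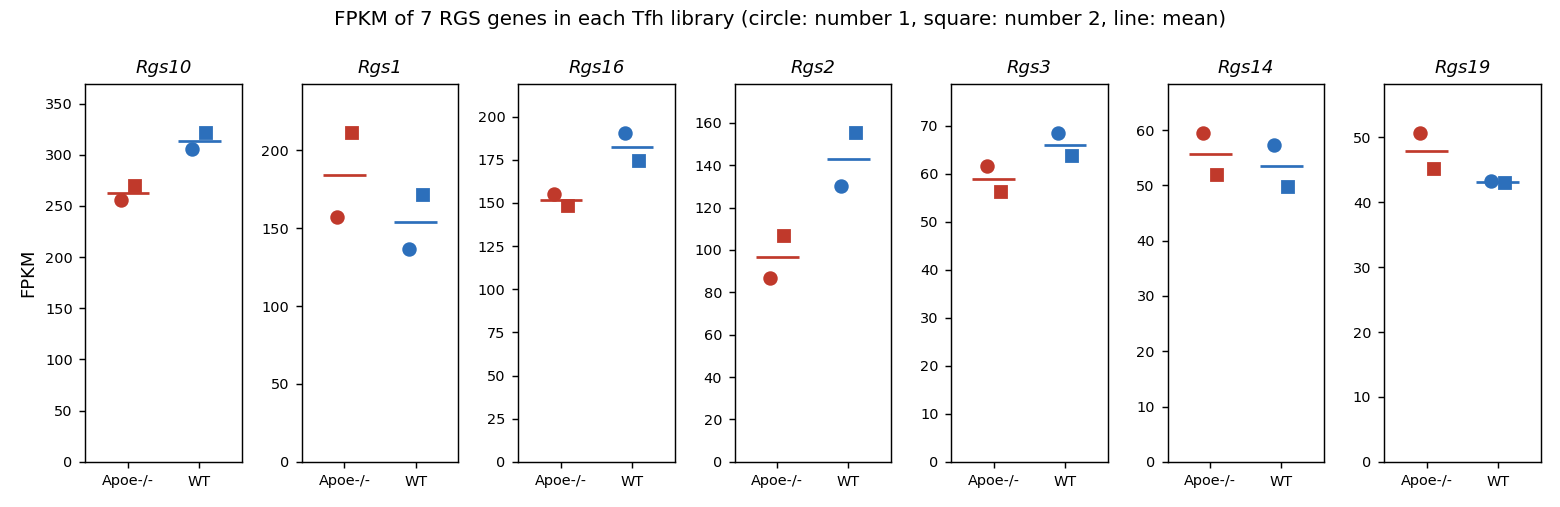
FPKM of the 7 RGS genes in each library, with Apoe-/- in red on the left and WT in blue on the right of each panel. Circles are libraries numbered 1, squares those numbered 2 and lines group means. Each panel has its own axis from 0; for Rgs2 both Apoe-/- points, 86.7 and 107 FPKM, lie below both WT points, 130.3 and 155 FPKM.

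The 7 genes were all in the upper part of the expressed genes. Rgs10 had a higher 4-library mean (288 FPKM) than 97.9% of the 11187 tested genes, and Rgs19, the lowest of the 7 (45.5 FPKM), a higher one than 81.7%. Neighbours in the order of levels were not always separable. The ranges over libraries were apart between Rgs10 and Rgs1 and between Rgs2 and Rgs3. They overlapped between Rgs1 and Rgs16, of which Rgs1 was the higher in only 2 of 4 libraries. Ranges also overlapped for Rgs16 and Rgs2, for Rgs3 and Rgs14 and for Rgs14 and Rgs19, although within each of the 4 libraries the first of each pair was the higher.

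Rgs2 encodes a small RGS protein that acts best on Gq alpha subunits and is known as an early gene of T cell activation. It lies on chromosome 1 at 143999338 to 144004149 (RefSeq, GRCm38.p6). It was measured at 86.7 and 107 FPKM in Apoe-/- cells and at 130.3 and 155 FPKM in WT cells, so the genotypes did not overlap. Means were 96.7 ± 14.2 FPKM in Apoe-/- and 143 ± 17.6 FPKM in WT cells (SD, n = 2 each). The difference of log2(FPKM + 1) was -0.56 ± 0.14 SE with a 95% interval of -0.92 to -0.20 (limma, adjusted p = 0.129 over all genes). The interval covers this gene alone and is not adjusted for the number of genes. Within libraries of equal number the difference was -0.58 (number 1) and -0.54 (number 2). Rgs2 passed in 2 of 12 alternatives, without Apoe-/- replicate 2 (log2 difference -0.71, limma adjusted p = 0.0236) and with the replicate number as a block (adjusted p = 0.00158), over a range of 0.00158 to 0.477.

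Rgs16 encodes a regulator of Gi and Gq signaling that is induced in activated T cells and limits their migration. Rgs16 lies on the same chromosome at 153740353 to 153745468. It was at 155 and 148 FPKM in Apoe-/- cells and at 190.5 and 174 FPKM in WT cells, again without overlap. Means were 152 ± 4.99 FPKM in Apoe-/- and 182 ± 11.7 FPKM in WT cells (SD, n = 2 each). The log2 difference was -0.26 ± 0.09 SE, with a 95% interval of -0.50 to -0.027 (limma adjusted p = 0.214). It was -0.29 within number 1 and -0.23 within number 2. In GENCODE vM21, 236 of the 2339 exonic bases of Rgs16 are shared with the antisense gene Gm28513. Whether counting used strand is not given in the sources used here, so reads of this pair may not have been told apart. No exon of the other 6 RGS genes overlaps one of another gene.

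No RGS gene passed, so the windows before the start sites of Rgs2 and Rgs16, the members with the largest differences, are shown for their sequence alone, chosen after their values were seen. RefSeq windows (GRCm38.p6) were available for 5 of the 7 genes. Each sequence below runs 5′ to 3′ on the gene's own strand over the 250 bases that end just before the start site, at chr1:144004150-144004399 (minus strand) for Rgs2 and chr1:153740103-153740352 (plus strand) for Rgs16. Capitals mark the core of the cAMP response element, TGACG, on either strand.
Rgs2: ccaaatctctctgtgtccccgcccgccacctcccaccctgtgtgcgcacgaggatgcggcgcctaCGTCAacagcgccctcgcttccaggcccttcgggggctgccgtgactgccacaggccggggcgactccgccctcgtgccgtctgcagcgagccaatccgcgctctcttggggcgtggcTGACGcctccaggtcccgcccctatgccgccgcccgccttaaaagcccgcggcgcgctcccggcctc
Rgs16: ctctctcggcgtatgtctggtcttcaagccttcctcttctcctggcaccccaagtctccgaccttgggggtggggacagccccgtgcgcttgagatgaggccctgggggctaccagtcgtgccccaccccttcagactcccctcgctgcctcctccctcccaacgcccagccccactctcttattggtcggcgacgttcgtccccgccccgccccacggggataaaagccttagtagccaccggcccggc

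The Rgs2 window holds 2 copies of that core, which start 185 bases before the start site on the opposite strand and 67 bases before it on the gene's strand. Of all 32851 windows of this length in the table, 17.8% hold at least 1 copy on either strand and 3.9% at least 2. The Rgs16 window holds none. Neither window holds the full element TGACGTCA, which contains the core and is present in 1.55% of windows, or the NFAT core GGAAA, present in 55.6%. GC content is 72.4% in the Rgs2 and 66.4% in the Rgs16 window. A match or its absence describes these letters only.

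Rgs1 encodes the RGS protein best known from germinal centre B and T cells, where it dampens responses to follicular chemokines. It lies at 144244669 to 144249104 on chromosome 1. It was at 157 and 211 FPKM in Apoe-/- cells and at 137 and 171 FPKM in WT cells. The groups overlapped, since the WT library numbered 2 exceeded the Apoe-/- library numbered 1. Means were 184 ± 38.3 FPKM in Apoe-/- and 154 ± 24.4 FPKM in WT cells (SD, n = 2 each). The log2 difference was 0.25 ± 0.18 SE, with a 95% interval of -0.20 to 0.70 (limma adjusted p = 0.501). It was 0.20 within number 1 and 0.30 within number 2. With 1 library left out it ranged from 0.037, without Apoe-/- replicate 2, to 0.46, without Apoe-/- replicate 1, and was 0.088 without WT replicate 1 and 0.41 without WT replicate 2.

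Rgs3 encodes a regulator of Gi and Gq signaling with long and short isoforms, which a value per gene does not separate. Rgs3 (chromosome 4, 62559835 to 62703019) was at 61.5 and 56.3 FPKM in Apoe-/- cells and at 68.5 and 63.6 FPKM in WT cells. The groups did not overlap, but the gap between them, from 61.5 to 63.6 FPKM, was smaller than the distance between the libraries of either genotype. The log2 difference was -0.16 ± 0.10 SE with a 95% interval of -0.42 to 0.095 (limma adjusted p = 0.438). Without 1 library it ranged from -0.1, without Apoe-/- replicate 2, to -0.23, without Apoe-/- replicate 1.

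Rgs10 encodes a short RGS protein selective for Gi-class subunits and abundant in immune cells. Rgs10 (chromosome 7, 128373621 to 128419506) was at 256 and 269.6 FPKM in Apoe-/- cells and at 305 and 321 FPKM in WT cells. The groups did not overlap, and means were 263 ± 9.92 FPKM in Apoe-/- and 313 ± 11.4 FPKM in WT cells (SD, n = 2 each). Its log2 difference was -0.25 ± 0.085 SE with a 95% interval of -0.47 to -0.041 (limma adjusted p = 0.193). It was -0.26 within number 1 and -0.25 within number 2.

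Rgs14 encodes a scaffold that joins an RGS domain to Ras-binding domains and a GoLoco motif for inactive Gi alpha subunits. Rgs14 (chromosome 13, 55369732 to 55384687) was at 59.5 and 51.9 FPKM in Apoe-/- cells and at 57.3 and 49.7 FPKM in WT cells. The libraries interleaved, with number 1 high in both genotypes. The log2 difference was 0.057 ± 0.12 SE with a 95% interval of -0.25 to 0.37 (limma adjusted p = 0.834). Its sign was not stable, being -0.039 without Apoe-/- replicate 1 and -0.043 without WT replicate 2.

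Rgs19, also called GAIP, encodes a Gi-directed RGS protein of intracellular membranes. Rgs19 (chromosome 2, 181688419 to 181694537) was at 50.7 and 45.2 FPKM in Apoe-/- cells and at 43.3 and 42.95 FPKM in WT cells. It was the single member with both Apoe-/- libraries above both WT libraries. The log2 difference was 0.15 ± 0.10 SE with a 95% interval of -0.12 to 0.41 (limma adjusted p = 0.498). It was 0.22 within number 1 and 0.071 within number 2. The value was 0.064 without Apoe-/- replicate 1 and 0.23 without Apoe-/- replicate 2.

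**Figure D2:**
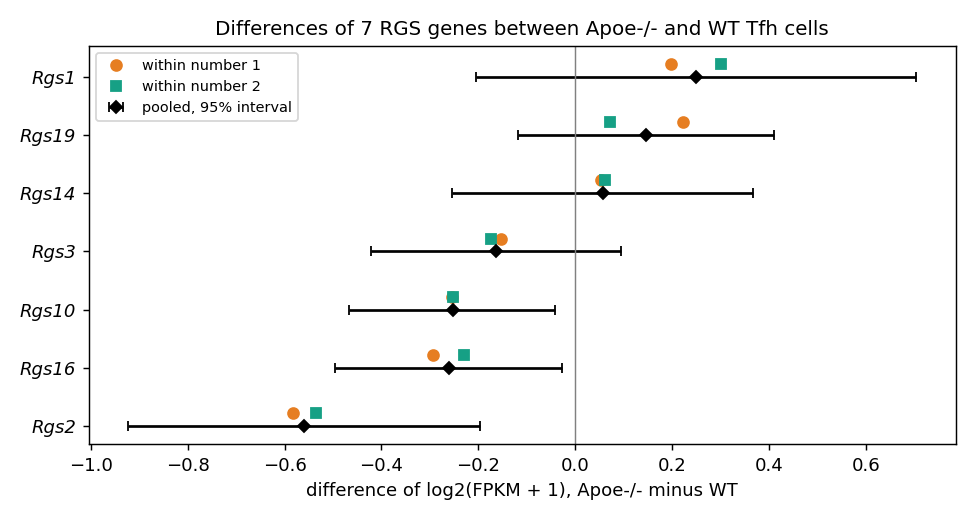
Genotype difference, Apoe-/- minus WT, of the 7 RGS genes in log2(FPKM + 1). Diamonds with bars are the pooled difference and its 95% interval from limma, and circles and squares are the differences within libraries numbered 1 and 2. The intervals of Rgs2, Rgs10 and Rgs16 lie below 0 before adjustment for the number of genes, and those of the other 4 include 0.

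The RGS genes that passed after Benjamini-Hochberg adjustment over 11187 genes numbered 0 of 7, and 5 of 7 with the block. With the block, 1908 of all 11187 genes also passed as higher and 1776 as lower. Without the block, 3 of 7 had an unadjusted p under 0.05, Rgs2, Rgs10 and Rgs16, all lower in Apoe-/- cells. The share of all tested genes was 19.9% in either direction and 8.27% lower. The genotypes did not overlap for 5 of the 7, 4 of them lower and 1 higher in Apoe-/- cells, against 50.4% of tested genes in either direction, 22.9% lower and 27.5% higher. The median difference of the 7 was -0.16, with -0.15 within number 1 and -0.17 within number 2, and the median of all tested genes was 0.0. The median of the 7 ranged from -0.22 to -0.1 over the alternatives, the value nearest 0 being that without Apoe-/- replicate 2. These counts are of a family of few genes and are given as a description. A p that misses the threshold does not show that a gene was equal, and for Rgs1 a difference of up to 0.70 on the log2 scale lies within its interval.

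**Figure D3:**
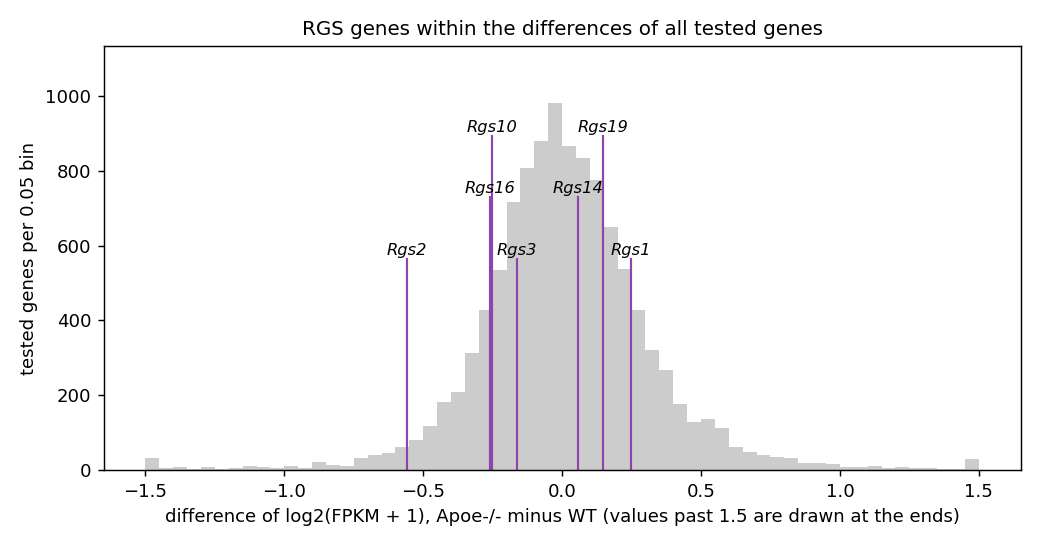
Histogram of the difference of log2(FPKM + 1), Apoe-/- minus WT, for the 11187 tested genes in bins of 0.05, with the 7 RGS genes drawn as vertical lines whose height has no meaning. Rgs2 at -0.56 lies farthest from 0, and 9.24% of tested genes differ by 0.5 or more in either direction.

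The RGS genes also varied by library number. Rgs1, Rgs2 and Rgs10 were higher in the library numbered 2 of both genotypes, and the other 4 were higher in the library numbered 1 of both. Such a shared order held for 77.5% of tested genes. The sign of the difference was the same within both numbers for all 7, and for 79.8% of tested genes.

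Ratios between members within a library depend little on how that library was scaled, and were compared as differences of log2(FPKM + 1). Of the 21 pairs of members, 14 had ratios that did not overlap between genotypes, against 53.3% of all pairs of tested genes. Pairs share genes and so are not independent. The ratio that differed most was that of Rgs1 to Rgs2. It was 1.81 and 1.98 in Apoe-/- libraries and 1.05 and 1.1 in WT libraries, so the 2 genes were near parity in WT cells and Rgs1 was well above Rgs2 in Apoe-/- cells. The ratio of Rgs1 to Rgs16 was 1.01 and 1.42 in Apoe-/- libraries and 0.717 and 0.984 in WT libraries. Rgs10 to Rgs16 was 1.65 and 1.82 in Apoe-/- and 1.6 and 1.85 in WT libraries, which interleaved. These ratios were looked at after the gene values were seen and were not tested.

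Rgs1 and Rgs2 are neighbours. With Rgs13, Rgs21 and Rgs18 they occupy 0.776 Mb of chromosome 1, from 143999338 to 144775427, with no other protein-coding gene between them in RefSeq, and Rgs16 lies 8.96 Mb farther along. Levels within that stretch were unlike each other. Rgs13, which restrains chemokine signals in germinal centre B cells, was at 0.228 and 0.132 FPKM in Apoe-/- and 0.236 and 0.287 FPKM in WT cells. Rgs18, known from platelets and myeloid cells, was at 0.866 and 1.31 FPKM in Apoe-/- and 0.529 and 0.569 FPKM in WT cells. Rgs21 was listed at 0 in all libraries. Without the FPKM filter Rgs18 had a log2 difference of 0.42 (limma adjusted p = 0.214). In the same libraries all 4 tested of the 9 neutrophil markers found rose, as did 1 of 10 tested macrophage markers. Of 6 platelet markers 1 was tested and did not pass. The platelet sums were 4.70 to 5.82 FPKM in Apoe-/- and 4.82 to 5.07 FPKM in WT libraries. Which cells the Rgs18 transcripts came from was not tested.

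Of the 14 other RGS genes, 4 reached a mean of 1 FPKM, and 0 of these passed limma's test, with 1 at an unadjusted p under 0.05. That one was Rgs12, a large relative of Rgs14, at 3.07 and 3.28 FPKM in Apoe-/- and 2.0 and 2.28 FPKM in WT cells (log2 difference 0.41, limma adjusted p = 0.173). Rgs9 and Rgs11, which in neurons act together with the beta subunit Gnb5, were at 6.75 and 6.36 against 5.66 and 5.76 FPKM and at 4.22 and 3.44 against 3.07 and 2.91 FPKM in Apoe-/- against WT libraries. Rgs8 was at 1.25 and 1.44 FPKM in Apoe-/- and 1.54 and 1.44 FPKM in WT cells. The median of the 4 was 0.22, and it was 0.006 with no FPKM filter, when genes of lower level were included. Rgs7, Rgs21 and Rgs22 were listed at 0 in all libraries.

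The proteins that RGS genes act on or beside were read from lists of the same pathway. Among 9 tested G alpha genes 0 passed, with a median of -0.15 and 1 at an unadjusted p under 0.05. The median had no stable sign: it was 0.07 without Apoe-/- replicate 1, 0.048 without WT replicate 2, -0.039 without Apoe-/- replicate 2, -0.059 without WT replicate 1 and -0.028 at a mean FPKM of at least 5. The gene under 0.05 was Gna11, a Gq-class subunit, at 10.8 and 9.07 FPKM in Apoe-/- and 7.15 and 7.72 FPKM in WT cells (limma adjusted p = 0.21). Gnai2, the main Gi alpha subunit of lymphocytes, was at 363 and 336 FPKM in Apoe-/- and 336 and 300.0 FPKM in WT cells (log2 difference 0.14, limma adjusted p = 0.492). Among 9 tested beta and gamma genes 0 passed, with a median of 0.12 (0.29 without Apoe-/- replicate 1) and 3 at an unadjusted p under 0.05. Of these Gng10, a gamma subunit, had the smallest p, at 69.97 and 74.5 FPKM in Apoe-/- and 49.7 and 55.8 FPKM in WT cells (limma adjusted p = 0.111).

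Receptor kinases and arrestins switch off the receptor itself. Of 7 such genes 1 rose, Grk3, listed under its older symbol Adrbk2, at 4.67 and 4.67 FPKM in Apoe-/- and 2.08 and 2.35 FPKM in WT cells (log2 difference 0.82 ± 0.12 SE, limma adjusted p = 0.0493). That call ended in 4 of its 11 alternatives, namely 0.146 when WT replicate 1 was left out, 0.121 when WT replicate 2 was, 0.102 with no FPKM filter and 0.0557 with quantile normalization (adjusted p). The other 6 did not pass, and 2 of the 7 had an unadjusted p under 0.05. The list median was 0.11, with 0.027 without WT replicate 2 and 0.18 without WT replicate 1. Of 20 tested effectors of Gi and beta-gamma signaling 0 passed, with a median of 0.14 (0.067 without Apoe-/- replicate 2) and 4 at an unadjusted p under 0.05. Ric8a, a chaperone of alpha subunits listed as Ric8, had the smallest p of these, at 36.3 and 35.98 FPKM in Apoe-/- and 27.1 and 26.2 FPKM in WT cells (limma adjusted p = 0.102).

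Among 17 tested chemoattractant receptors 1 rose and 1 fell, and 10 of 17 had an unadjusted p under 0.05, against 19.9% of all tested genes. Their median was -0.17, with -0.072 without Apoe-/- replicate 2, -0.11 without WT replicate 1 and -0.065 with no FPKM filter. Ccr7, the receptor that holds T cells in the T zone, fell to 36.7 and 31.9 FPKM in Apoe-/- cells, against 66.7 and 58.8 FPKM in WT cells (log2 difference -0.85, limma adjusted p = 0.0442). Cxcr3, a receptor of interferon-induced chemokines that CD8 T and NK cells also carry, was at 122 and 106 FPKM in Apoe-/- and 69.2 and 63.4 FPKM in WT cells (0.77, limma adjusted p = 0.0442). Both calls ended in 6 of 12 alternatives, among them without WT replicate 1 (adjusted p = 0.126 for Ccr7 and 0.0807 for Cxcr3) and without WT replicate 2 (0.0703 and 0.152). Cxcr4, a receptor whose signal Rgs1 and Rgs16 can dampen, was at 188 and 189 FPKM in Apoe-/- and 277 and 267 FPKM in WT cells, close to the threshold (log2 difference -0.53, limma adjusted p = 0.0502). Cxcr4 passed in 3 of 12 alternatives (limma adjusted p). These were a pseudocount of 0.5 (0.0495), rescaling to a common FPKM total (0.0418) and the replicate number as a block (0.00148). Cxcr5, the receptor for the follicular chemokine, was at 223 and 204 FPKM in Apoe-/- and 176 and 162 FPKM in WT cells (limma adjusted p = 0.153). S1pr1, which guides exit from lymphoid organs, was at 75.0 and 79.9 FPKM in Apoe-/- and 70.2 and 73.6 FPKM in WT cells (limma adjusted p = 0.585). The part of B cells and other cells in these receptor values, those of Ccr7, Cxcr4 and Cxcr5 included, was not tested.

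**Figure D4:**
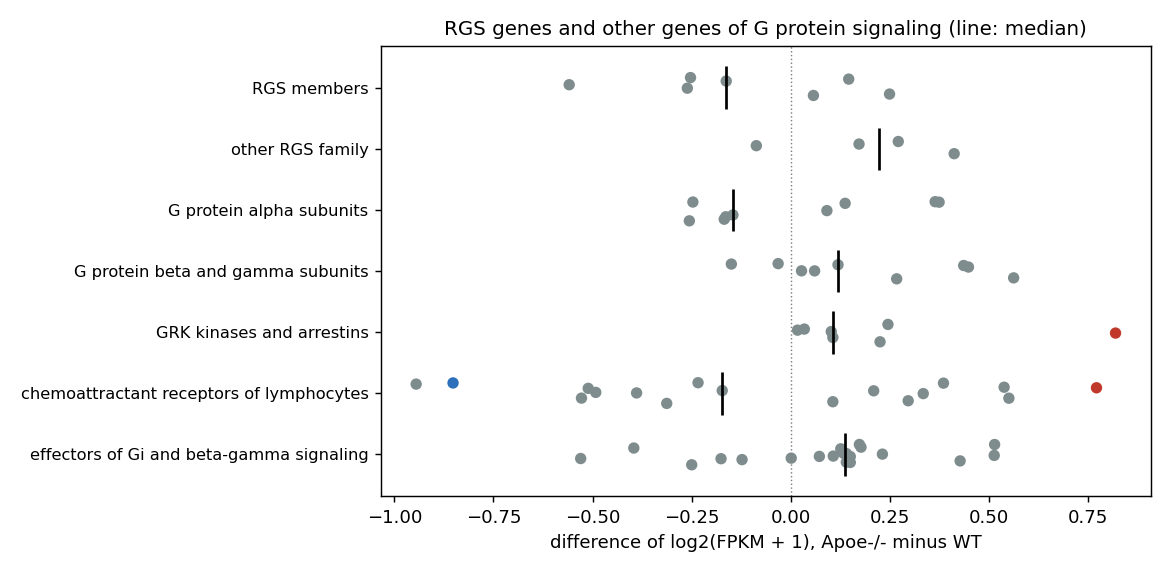
Difference of log2(FPKM + 1), Apoe-/- minus WT, for each tested gene of the 7 RGS genes and 6 lists of the pathway, spread vertically only so that points can be told apart. Black lines are list medians, red points passed the test as higher (Grk3 and Cxcr3), the blue point as lower (Ccr7), and grey points did not pass.

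The genes whose pattern over the 4 libraries was most like that of Rgs2, the member with the smallest p, were Malt1, Cep85l and Nasp. After each gene's own mean was subtracted, their log2 values differed from those of Rgs2 by a root mean square of 0.00662, 0.00709 and 0.0104. Malt1, a paracaspase of antigen receptor signaling, was at 122 and 149 FPKM in Apoe-/- and 183 and 216 FPKM in WT cells. With 4 libraries in 2 groups, many genes come close to any pattern, and likeness is given as a description.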

How the data were processed

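The authors' deposited table holds FPKM per gene symbol, with 1 column for each of the 4 libraries. Per the submitters' processing notes, CASAVA 1.8.2, TopHat2 2.0.13, Cuffdiff 2.2.0 and build mm10 were used, with no order or settings. Annotation, strandedness and filters were not given in the sources used here. In 2 rows a space stood for a tab, and these were split on white space. Read depth is unknown. FPKM totals were 533866 and 551289 in Apoe-/- and 522371 and 527056 in WT libraries. Low FPKM values of equal-numbered libraries shared 1 ratio in 19.0% (number 1) and 18.8% (number 2) of genes, against 4.64% to 6.44% in other pairs, so differences within each number are also given. Whole reads were not recovered.

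The 11187 genes that averaged 1 FPKM or more were log-transformed, as log2(FPKM + 1), and fitted with limma 3.58.1 in R 4.3.3 (lmFit, then trended eBayes, two-sided). P-values were adjusted by Benjamini-Hochberg over all tested genes with a threshold of 0.05. Differences are Apoe-/- minus WT on that scale, which understates low genes. Only 2 residual degrees of freedom are available. A permutation of 2 libraries against 2 cannot go below p = 0.333. The procedure was tested on simulated data with planted changes larger than any RGS difference here and no effect of the replicate number. That run does not show whether differences as small as those of the RGS genes would be found. The members and lists were chosen with earlier results of these data known. Named were all 7 members, other RGS genes with a mean of 1 FPKM or more, members of each pathway list that passed or, with none, the one with the smallest adjusted p, and Gnai2, Cxcr4, Cxcr5, Ccr7, S1pr1 and Apoe; Rgs13, Rgs18, Rgs21, Rgs7 and Rgs22 were added after their values were seen. Older symbols were matched through RefSeq. Promoter sequences are from RefSeq (GRCm38.p6, the assembly of mm10). Alternatives changed the pseudocount, filter, scaling and variance model, added the replicate number as a block, or left out 1 library.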

Additional observations from a re-analysis of the deposited data

How the results depend on the processing

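Of the 7 RGS genes, 0 passed in 10 of 12 alternatives, and with 1 library left out the count ranged from 0 to 1, the 1 being Rgs2. With the replicate number as a block 5 of 7 passed, Rgs1, Rgs2, Rgs3, Rgs10 and Rgs16 (adjusted p = 0.00158 to 0.0339), along with 1908 genes higher and 1776 lower and 34 pathway genes. No label says that a number marks a common animal or date, so the block was not used. The deviations of equal-numbered libraries correlated at 0.214 over genes, from 2 pairs only. The same order by number in both genotypes held for 77.5% of tested genes. Low FPKM values of equal-numbered libraries shared 1 ratio in 19.0% and 18.8% of genes, against 4.64% to 6.44% in other pairs. Whether equal numbers mark pairs was not tested. Rgs14 had a log2 difference of -0.043 to 0.157 with 1 library left out, below 0 without Apoe-/- replicate 1 or WT replicate 2, and the other 6 RGS genes kept their sign in all 12. Of all genes, 106 were higher and 99 lower. With no FPKM filter these were 35 and 41, and with a mean FPKM of at least 5 there were 51 higher. Leaving out single libraries gave 54 to 317 higher and 61 to 301 lower. The lone library is then assumed to vary like the other group. Pathway genes that passed numbered 3. They were 0 with no FPKM filter and with a mean FPKM of at least 5, 1 with quantile normalization and without a variance trend, and 0 to 7 with 1 library left out. The cause of these changes was not tested. Depth is unknown, so no counting error could be given.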
